A study of Mus musculus with 24 samples.

Results

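The soleus of MCK-PPARa mice was compared with the soleus of their non-transgenic littermates, called NTGa. The members of the comparison were chosen by label: the 3 MCK-PPARa animals and the 3 NTGa animals, 6 of the 12 mice in the series, with all 584 microRNA assays of the study. MCK-PPARa mice overexpress PPARα from a muscle-specific transgene, named after the muscle creatine kinase promoter. NTGa mice are wild type. All were males aged 12 weeks, and no treatment is stated. The study also holds MCK-PPARb mice, which overexpress PPARβ in muscle, and their wild-type littermates NTGb, with 3 animals in each group and the same sex and age. Each RNA came from the whole muscle, so a microRNA measured here may come from muscle fibres or from the other cells of the tissue, and fewer cells of a type cannot be told apart from less RNA per cell. The number of transgenic founder lines is not given in the sources used here, and the cards hold no assay for Ppara messenger RNA, so the transgene itself was not checked.

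PPARα is a nuclear receptor that binds fatty acids and switches on genes of fatty acid uptake and oxidation. The soleus, a calf muscle used in standing, holds many slow-twitch, oxidative fibres. MicroRNAs are short RNAs that lower the output of messenger RNAs whose sequence pairs with the microRNA's seed, the bases near its 5′ end. Several microRNAs of striated muscle are made from introns of myosin genes and are known for their part in keeping slow-fibre genes on.

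The mature sequences below belong to the microRNAs on which the results turn and to their nearest relatives. A near-identical sequence bears on how an assay reads, and a shared seed bears on which messenger RNAs are paired. They are RefSeq's (GRCm38.p6), written 5′ to 3′ with the seed, bases 2 to 8, in capitals. Of 33 names looked up, 30 were matched. For most names the files do not give the hairpin arm, which was taken from the microRNA names now in use.
miR-499: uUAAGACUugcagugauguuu
miR-208b: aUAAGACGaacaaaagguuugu
miR-190b: uGAUAUGUuugauauuggguug
miR-190: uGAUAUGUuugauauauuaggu
miR-215: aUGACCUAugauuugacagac
miR-192: cUGACCUAugaauugacagcc
miR-194: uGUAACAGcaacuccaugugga
miR-331-5p: cUAGGUAUggucccagggaucc

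miR-499 (chr2:155622893-155622913, plus strand) lies within Myh7b, a slow-type myosin heavy chain gene. miR-208b (chr14:54975710-54975731, minus strand) lies within Myh7, which encodes the main slow and cardiac myosin heavy chain. Their seeds share 6 of 7 bases. miR-190b (chr3:90070030-90070051, plus strand) lies within no other gene of the RefSeq table, and miR-190 (chr9:67236700-67236721, minus strand) lies within Tln2, which encodes talin 2. These have the same seed and differ at 7 of 22 bases. miR-215 (chr1:185313610-185313630, plus strand) lies within Iars2, which encodes a mitochondrial isoleucyl-tRNA synthetase, and its hairpin is 195 bases from that of Mir194-1. miR-192 (chr19:6264857-6264877, plus strand) has its hairpin 115 bases from that of Mir194-2, so the mature miR-194 can come from either place. miR-192 and miR-215 have the same seed and differ at 3 of 21 bases. miR-331-5p (chr10:93963817-93963838, minus strand) lies within Vezt, which encodes an adherens junction protein.

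Abundance was measured as a cycle threshold (Ct), the PCR cycle at which fluorescence crosses a set level, so a lower Ct means more template. A microRNA counted as detected at a Ct under 35. Relative abundance is given in log2 units, as the Ct of a microRNA subtracted from the average Ct of those microRNAs of its card that every one of the 12 animals showed. Values not detected, and values lower still, were set to a floor of -6.56 on card A and -5.66 on card B. Where a whole group sits at the floor, only a bound is known. Between 267 and 280 microRNAs were detected per animal, with a mean of 278 ± 1.73 (SD, n = 3) in MCK-PPARa and 272.67 ± 6.03 in NTGa (two-sided exact permutation test, p = 0.3). U6 small nuclear RNA had a mean Ct of 19.8 ± 0.0772 in MCK-PPARa and 19.7 ± 0.095 in NTGa (exact p = 0.6, n = 3). With 3 animals a side the smallest possible exact p is 0.1.

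Card B of MCK-PPARa replicate 1 stood apart from the other cards. Its median correlation with card B of the other animals was 0.862, against 0.961 to 0.979 for the rest, while card A of the same animal gave 0.964. Of 124 wells called in all 12 animals on card B, 24 (19.4%) differed by more than 3 Ct from the mean of the others, and no other card B had more than 7. Of the 86 microRNA assays behind these wells, 11 had a lower Ct and 8 a higher Ct by that margin. Where 2 wells of such an assay were called, as for 9 of the 19, they differed from each other by a median of 0.229 Ct. In these 9 the deviation was therefore shared by wells of the same assay. The rest did not have 2 called wells and were not compared. Any pair with 1 empty well, which disagrees, would be among the rest. The values that this card enters are given below with and without it, and the cause of its deviation was not tested.

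**Figure D1:**
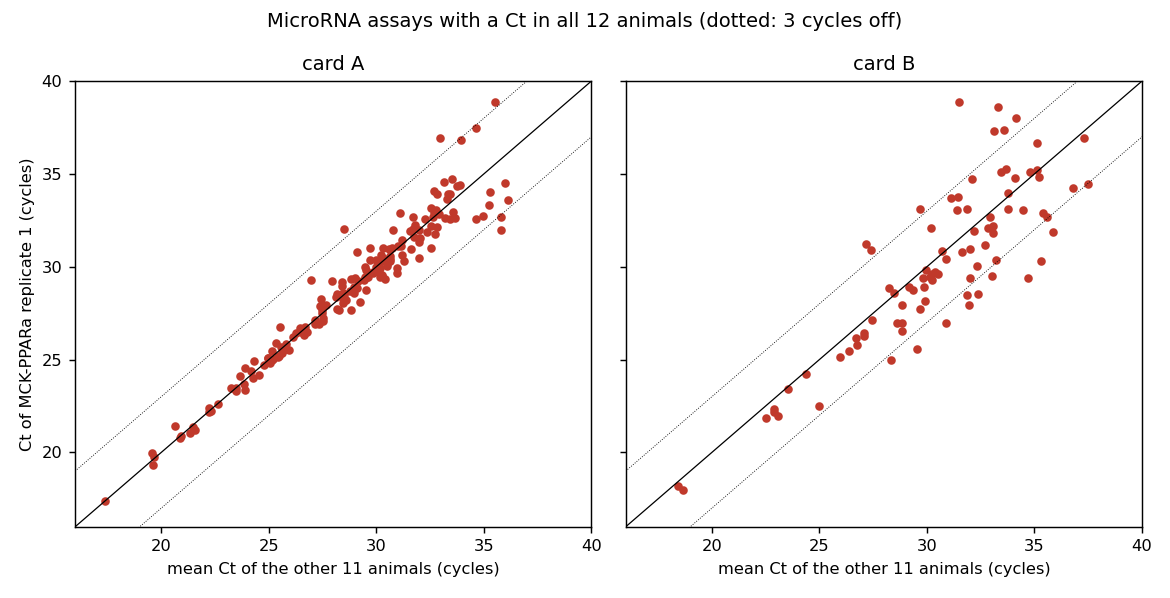
The Ct of MCK-PPARa replicate 1 (vertical axis, cycles) is plotted against the mean Ct of the other 11 animals (horizontal axis, cycles) for each microRNA assay called in all 12 animals, 172 on card A (left) and 86 on card B (right), with dotted lines at 3 cycles from equality. On card A 5 assays lie outside these lines, and on card B 19 do. An empty well beside a called one of the same assay counted as a Ct of 40.

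Of the 584 assays, 245 were detected in none of the 6 animals. Testing required detection throughout at least 1 of the 4 groups, which left 268 assays. In MCK-PPARa soleus 3 microRNAs rose and 3 fell, 6 of the 268 tested (2.24%; 1.12% in each direction; limma, Benjamini-Hochberg adjusted p under 0.05). miR-215, miR-194 and miR-192 rose. miR-499, miR-190b and miR-331-5p fell. With U6 as the reference, or with no reference, 1 rose and 3 fell. At an unadjusted p under 0.05 there were 44 (16.4%), of which 20 were higher (7.46%) and 24 lower (8.96%). Values of the 2 groups were fully separated in 69 assays (25.7%), MCK-PPARa lying above NTGa in 40 (14.9%) and below in 29 (10.8%).

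Most microRNAs differed little between the groups. The median log2 change over the 268 was 0.12, the middle of the distribution ran from -0.23 (25th percentile) to 0.41 (75th), and 42 assays changed by more than 1 on the log2 scale, 21 in each direction. The median was -0.003 with no reference and 0.21 with the median microRNA as reference, so small changes of either sign depend on the scaling. Precision fell with Ct: the median SD within a group was 0.151 for assays with a mean Ct under 25 and 0.71 for those at 32 or over. Of the 80 assays at a mean Ct of 32 or over, 51 had at least 1 animal at the floor.

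**Figure D2:**
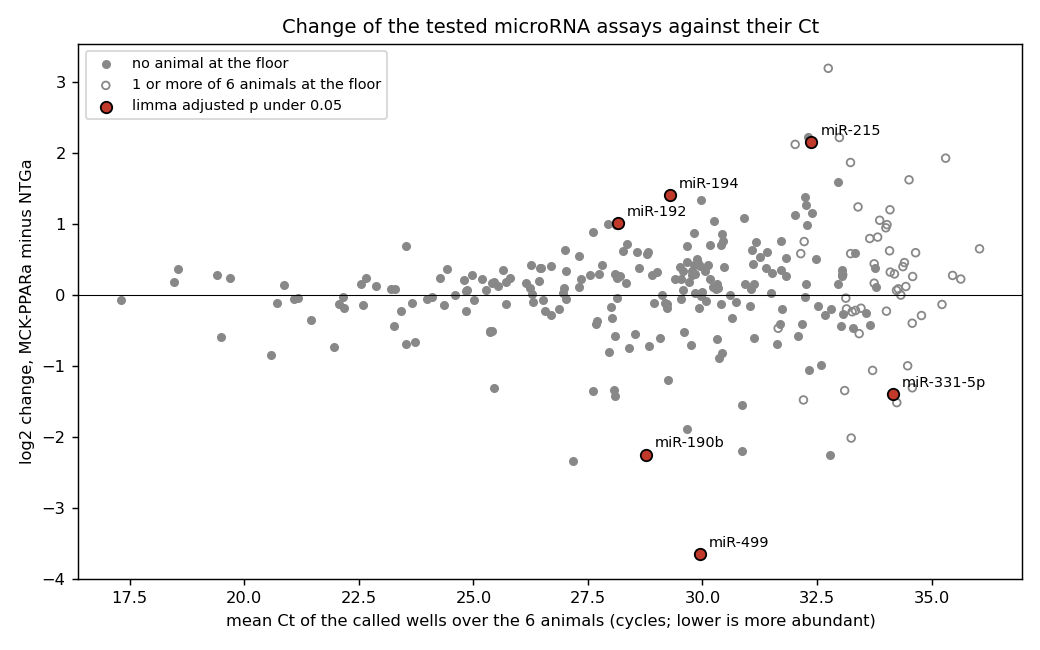
The log2 change of MCK-PPARa against NTGa (vertical axis) is plotted against the mean Ct of the called wells over the 6 animals (horizontal axis, cycles, lower being more abundant) for the 268 tested assays. Filled grey points had no animal at the floor, open points had at least 1, and the 6 red points passed an adjusted p under 0.05. Points spread more widely at higher Ct, and none of the 39 assays with a mean Ct under 25, nor of the 46 from 25 to 28, passed.

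miR-499, the microRNA of the slow-type myosin gene Myh7b, showed the largest change in size of the 268. Its Ct was 27.9, 28.02 and 28.1 in the 3 NTGa animals and 32.05, 32.2 and 31.3 in the 3 MCK-PPARa animals. Every MCK-PPARa animal was lower in abundance than every NTGa animal, by more than 3 cycles. miR-499 fell 12.6-fold (log2 -3.66, SE 0.30, 95% interval -4.33 to -2.99, limma adjusted p = 3.94e-05). In the other animals its Ct lay between 27.5 and 27.8, so that NTGb and MCK-PPARb resembled NTGa. Against NTGb, the MCK-PPARa group was lower by 4.34 on the log2 scale (adjusted p = 6.96e-06).

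miR-208b, the microRNA of the slow myosin gene Myh7, is known to act with miR-499 in keeping slow fibres. Its Ct was 32.9, 31.8 and 34.4 in NTGa. In MCK-PPARa it had no Ct in 2 animals and a Ct of 39.2 in the other, and all 3 were at the floor. The groups did not overlap, and miR-208b was the only assay detected in every NTGa animal and in no MCK-PPARa animal. The log2 change of -1.31 (SE 0.62, adjusted p = 0.334) did not pass, and at least 2.48-fold is a bound set by the floor. Against NTGb, where the Ct was 32.3, 32.3 and 31.1, the bound was larger and passed (log2 -2.80, limma adjusted p = 0.0356). A group wholly at the floor shows no spread, which lowers the shared estimate of it, so the p against NTGb may be too small. The third member of the group, miR-208 from the cardiac myosin gene Myh6, had no Ct in any of the 6 animals and was not tested.

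**Figure D3:**
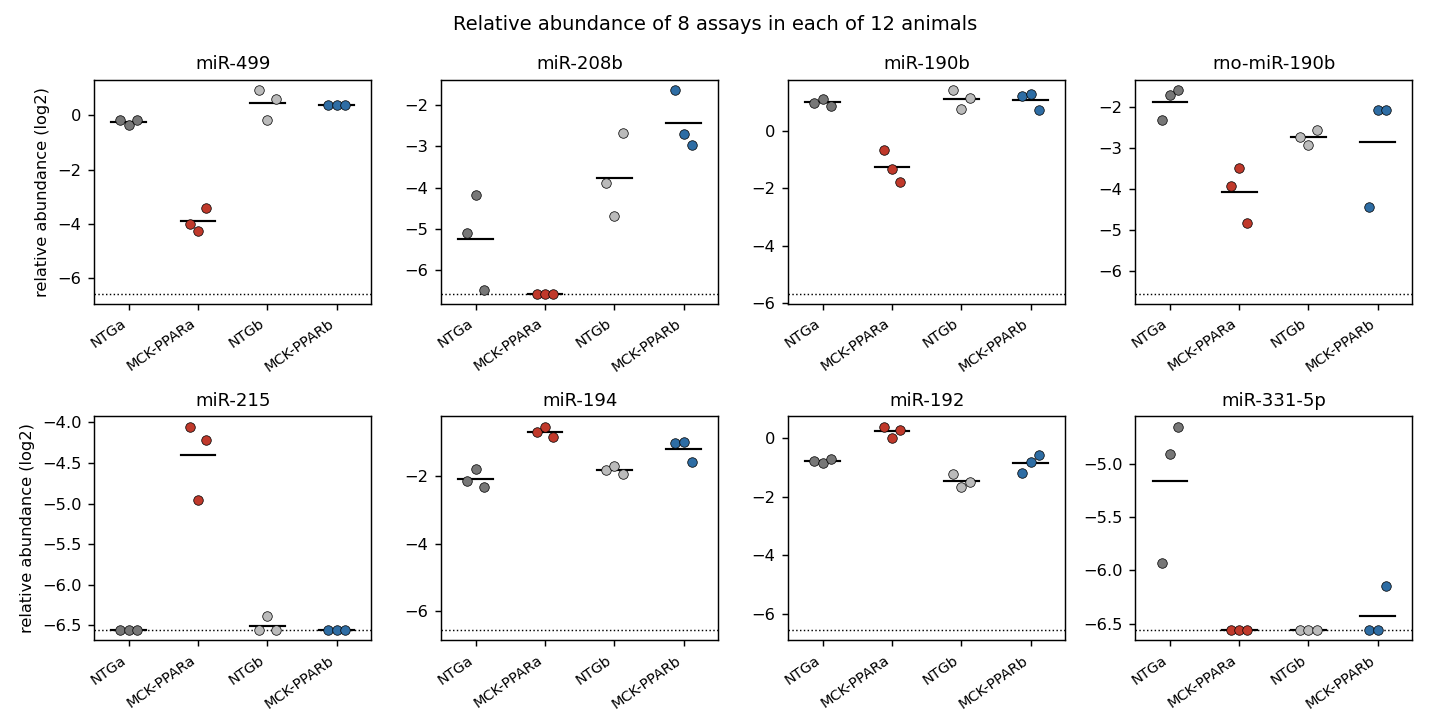
Relative abundance (vertical axis, log2) is plotted for each of the 12 animals in 4 groups, with 3 points and their mean (bar) per group, for the 6 microRNAs that passed and for miR-208b and the rat-named miR-190b assay. The dotted line is the floor of the card. For miR-499 the MCK-PPARa points lie near -3.89 and those of NTGa near -0.23, and for miR-215 only the MCK-PPARa points lie clear of the floor.

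miR-190b was measured on card B in 2 wells per animal. Its mean Ct was 27.7, 27.8 and 27.7 in NTGa and 28.8, 30.2 and 30.4 in MCK-PPARa. The groups did not overlap, and the MCK-PPARa value nearest to NTGa came from replicate 1, whose card B stood apart and whose wells read 28.4 and 29.3. The fall of miR-190b was 4.76-fold, or -2.25 in log2 units with an SE of 0.30 (adjusted p = 0.00148). With that card left out the fall was -2.55 (SE 0.28, limma adjusted p = 3.83e-04), over 2 MCK-PPARa animals.

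A rat-named assay of miR-190b sat on card A, which did not stand apart. It had a Ct of 30.1, 29.4 and 29.5 in NTGa and 31.99, 31.5 and 32.7 in MCK-PPARa. These groups did not overlap either, and the size of the change was close to that of the mouse assay (log2 -2.21, SE 0.58, adjusted p = 0.087), though it did not pass. miR-190, which has the same seed, read 32.6, 31.0 and 30.6 in NTGa and 32.1, 31.4 and 31.3 in MCK-PPARa. Its groups overlapped, and its log2 change was 0.02 (SE 0.56, 95% interval -1.22 to 1.26), with a sign that turned under other references.

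miR-215 and its partners miR-194 and miR-192 are known as microRNAs of liver, gut and kidney, encoded in a pair of short clusters. All 3 rose in MCK-PPARa, 3 of the 3 measured members of that group. They are also the only assays called higher (1.12% of all tested), so that share is no separate background for them. The list was chosen with earlier results of these data known. No NTGa animal gave a Ct for miR-215, and the MCK-PPARa animals gave 32.1, 32.9 and 32.1. It was called only at 33.95 in 1 NTGb animal and at 34.7 and 35.3 in 2 MCK-PPARb animals, so MCK-PPARa was the only group in which every animal had a Ct. It rose at least 4.46-fold (log2 2.16, SE 0.24, limma adjusted p = 3.29e-04). It was tested only because all 3 animals of MCK-PPARa, the group where it is high, detected it, so this p is no separate support. A group wholly at the floor has an SD of 0, which lowers the shared spread for this assay, so its p may be too small.

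miR-194 had a Ct of 29.9, 29.5 and 30.3 in NTGa and 28.8, 28.5 and 28.8 in MCK-PPARa. The groups did not overlap. The rise of miR-194 was 2.64-fold, or 1.40 in log2 units with an SE of 0.23 (adjusted p = 0.00688). miR-192 had a Ct of 28.5, 28.5 and 28.6 in NTGa and 27.7, 27.9 and 27.6 in MCK-PPARa. These groups were also apart, with a rise of 2.02-fold, or 1.01 in log2 units with an SE of 0.22 (adjusted p = 0.0425). The call of miR-194 was lost with U6 or no reference. That of miR-192 was lost under 7 of 18 processing alternatives, these 2 among them, and without any 1 of the 6 animals.

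Of the other microRNAs known from epithelium and liver, none passed. miR-122, which defines liver, had no Ct in any of the 6 animals. Of 10 epithelial microRNAs, 3 or 4 were detected per NTGa animal and 2 or 3 per MCK-PPARa animal, and miR-205 and miR-183 had no Ct in any. The summed level of the epithelial microRNAs, in units of the card's reference, ran from 0.852 to 2.13 in NTGa and from 0.924 to 1.07 in MCK-PPARa. Of the 3 that were tested, miR-182 measured 1.60 (Ct 34.0, 33.1 and 33.9 in NTGa and 32.3, 31.3 and 33.1 in MCK-PPARa, adjusted p = 0.431), miR-203 measured 0.24 and miR-200c measured -0.40.

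miR-331-5p had a Ct of 33.7, 32.6 and 32.6 in NTGa and 35.5, 34.9 and 35.7 in MCK-PPARa. The MCK-PPARa animals were all at the floor and below every NTGa animal. miR-331-5p fell at least 2.63-fold (log2 -1.40, SE 0.30, limma adjusted p = 0.0425). NTGb was also at the floor in all 3 animals, so the log2 change against NTGb was 0, and NTGa stood above NTGb by 1.40 (adjusted p = 0.0426). Groups wholly at the floor have an SD of 0, so both p-values may be too small. miR-331-5p was tested only because all 3 animals of NTGa, the group where it is high, detected it. The other strand of the same hairpin, miR-331-3p, had a Ct between 26.2 and 26.7 in all 6 animals and measured 0.20 (SE 0.22). The call of miR-331-5p was lost under 8 of 16 processing alternatives, beside the 0 against NTGb, and without any 1 of the 6 animals except NTGa replicate 1.

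The effect of MCK-PPARa differed from that of MCK-PPARb for 3 microRNAs (1.12% of 268, against 10.4% at an unadjusted p under 0.05), by a test of the difference between the 2 effects, which share no animals. The difference was -3.58 on the log2 scale for miR-499 (SE 0.43, limma adjusted p = 0.00141), since MCK-PPARb against NTGb measured -0.08. It was 2.22 for miR-215 (SE 0.34, limma adjusted p = 0.00612), with -0.06 in MCK-PPARb. That -0.06 was set by the floor, where every MCK-PPARb animal lay, so it does not show that miR-215 was unchanged in that line. miR-215 was tested only through its detection in MCK-PPARa, so the p of its difference carries the limits given above. For miR-190b the difference was -2.22 (SE 0.43, adjusted p = 0.0313), with -0.03 in MCK-PPARb, or -2.52 (adjusted p = 0.00542) without the card B that stood apart. This last call was lost without 5 of the 6 MCK-PPARa and NTGa animals taken one at a time. For miR-194 the difference was 0.78 (SE 0.33, adjusted p = 0.387) and for miR-192 it was 0.41 (SE 0.32, adjusted p = 0.699). MCK-PPARb itself measured 0.62 and 0.60 for these, so a difference between the lines was not shown for them.

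The microRNAs that mark skeletal muscle in general were abundant in every animal, and none of their 6 assays passed. They include miR-1, miR-133a and miR-133b, which act in muscle growth and differentiation, and miR-206, which is linked to regeneration and to slow fibres. The log2 change was -0.11 for miR-1, -0.08 for miR-133a and 0.13 for miR-133b, each with groups that overlapped. With the median microRNA as reference these became 0 for miR-1 and 0.03 for miR-133a, and with U6 miR-133b became -0.05. miR-206 measured 0.36, or 0.50 without the card that stood apart. The median of the 6 was 0.03, below the 0.12 of all tested assays, and it was negative with U6, with the endogenous controls and with no reference.

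The rat-named miR-1 assay read 19.1, 18.97 and 19.2 in NTGa and 19.98, 19.6 and 20.03 in MCK-PPARa. Its groups did not overlap, with a log2 change of -0.59 (SE 0.27, adjusted p = 0.321) that did not pass. miR-486, which comes from an intron of the ankyrin gene Ank1, read 23.8, 23.7 and 23.8 in NTGa and 23.3, 23.2 and 23.3 in MCK-PPARa. Its groups were apart as well, with small spread, and the change of 0.68 (SE 0.23, adjusted p = 0.206) did not pass.

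Among the microRNAs next in order of p on the higher side, miR-425 had the largest change. It read 33.9, 33.9 and 35.3 in NTGa and 30.5, 31.2 and 31.6 in MCK-PPARa. The groups did not overlap, and the log2 change was 3.19 (SE 0.78, adjusted p = 0.0645). In NTGb it read 31.3, 29.6 and 31.5, so NTGa was the low group and MCK-PPARa measured -0.46 against NTGb. NTGa minus NTGb was -3.65 (adjusted p = 0.0426). miR-191, whose hairpin lies 384 bases from that of miR-425 within the gene Dalrd3, read 22.5 to 22.8 in all 6 animals and measured 0.23. The other strand, miR-425*, measured -0.41, or 0.40 without the card B that stood apart.

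Other microRNAs next in order on the higher side did not pass. miR-185 read 29.95, 30.8 and 30.8 in NTGa and 29.5, 29.3 and 29.4 in MCK-PPARa, which is 1.34 in log2 units (SE 0.39, adjusted p = 0.134). Its groups were apart, and MCK-PPARb measured 1.28 against NTGb. miR-34a, a microRNA induced by p53 and known to act on the deacetylase Sirt1, read 30.3, 30.9 and 30.9 in NTGa and 29.9, 29.5 and 30.01 in MCK-PPARa, a change of 1.04 (SE 0.38, adjusted p = 0.217). Its groups did not overlap, and it measured 1.25 against NTGb. miR-221 measured 2.22 (SE 0.81), with Ct 32.3, 34.4 and 36.4 in NTGa and 31.9, 32.2 and 30.8 in MCK-PPARa. miR-222, its neighbour 504 bases away with the same seed, measured 0.16, and the difference within the pair was not tested. miR-339-5p measured 2.23 (SE 0.70), against -0.06 for the other strand by the mouse assay and 0.98 by the rat assay. miR-9, known from the nervous system, measured 1.62 (SE 0.58) with overlapping groups.

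**Figure D4:**
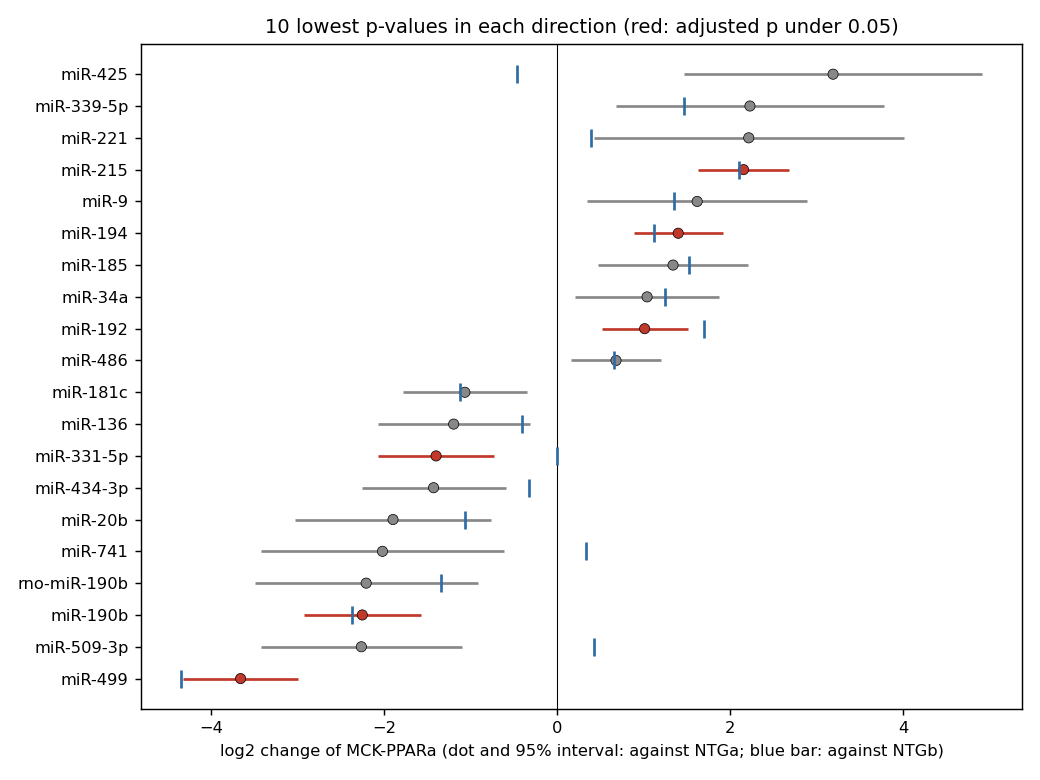
The log2 change of MCK-PPARa against NTGa (dot) with its 95% interval (line) is shown for the 10 assays of lowest p in each direction, red where the adjusted p was under 0.05, with the change against NTGb as a blue bar. miR-509-3p, miR-741 and miR-425 have the opposite sign against NTGb, and miR-331-5p is at 0 there.

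On the lower side, miR-509-3p came closest to passing. It read 32.3, 31.7 and 30.7 in NTGa and 34.4, 33.8 and 33.8 in MCK-PPARa. The groups did not overlap, and the log2 change was -2.26 (SE 0.53, adjusted p = 0.0522), or an adjusted p of 0.0436 with the card B that stood apart left out, which leaves its own card A values as they are. NTGa was higher than NTGb by 2.69 (limma adjusted p = 0.0339), and against NTGb MCK-PPARa measured 0.43. miR-20b read 29.7, 28.1 and 28.1 in NTGa and 31.02, 30.5 and 30.6 in MCK-PPARa, a change of -1.90 (SE 0.51, adjusted p = 0.0908), while a rat-named assay of miR-20b-5p on card B measured -0.18, or -0.51 without the card that stood apart. miR-181c measured -1.07 (SE 0.33, adjusted p = 0.16), with a like value of -1.12 against NTGb. miR-741 measured -2.02 and miR-136 measured -1.20. NTGa differed from NTGb in 5 assays (1.87%), miR-135a, miR-331-5p, miR-425, miR-509-3p and the rat-named miR-339-3p, and of these miR-425, miR-509-3p and the last changed sign with the choice of control. Against NTGb 7 assays passed (2.61%), which were miR-499, miR-190b, miR-215, miR-194, miR-192, miR-208b and miR-135a.

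Members of the list on lipid and energy metabolism were mostly higher in MCK-PPARa, and none passed. The list has 14 assays, of which 12 were tested and 11 had a positive log2 change, against 157 of all 268. Their median was 0.56, against 0.12 for all tested assays, and without the card B that stood apart all 12 were positive with a median of 0.64. With U6 or no reference 8 of 12 were positive. At an unadjusted p under 0.05 there were 3, miR-185, miR-34a and miR-33*, all higher, where 7.46% of all tested assays were higher by that rule. miR-33*, from an intron of the sterol regulator gene Srebf2, read 33.7, 32.7 and 32.5 in NTGa and 30.96, 30.94 and 32.6 in MCK-PPARa. On the relative scale its groups overlapped, and its change of 1.37 (SE 0.52, adjusted p = 0.226) turned to -0.72 against NTGb. Without the card B that stood apart it measured 1.30 (adjusted p = 0.311).

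miR-378 and miR-378* come from an intron of Ppargc1b, which encodes a coactivator of oxidative metabolism. miR-378 read 18.6, 18.7 and 18.6 in NTGa and 17.97, 18.6 and 18.4 in MCK-PPARa, and measured 0.18 (SE 0.19, 95% interval -0.25 to 0.60). miR-378* measured 0.38 (SE 0.23). Neither passed, and without the card that stood apart they measured 0.21 and 0.35. miR-210, which is induced by low oxygen, measured 0.76 with overlapping groups, and miR-107, from an intron of the pantothenate kinase gene Pank1, measured 0.94 with 2 NTGa animals at the floor.

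Large families showed changes of small size. For let-7, a family that restrains growth, 7 of 9 members were positive with a median of 0.24, and 5 of 9 were positive with U6. let-7c measured 0.63 (SE 0.28, adjusted p = 0.295). All 5 miR-30 members were negative with a median of -0.05, but 3 of the 5 were positive with the median microRNA as reference. miR-30d read 24.96, 25.02 and 25.2 in NTGa and 25.7, 25.8 and 25.8 in MCK-PPARa. Its groups did not overlap, yet it measured -0.51 (SE 0.22, adjusted p = 0.29) against NTGa and 0.00 against NTGb. miR-30e measured -0.74 (SE 0.33).

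In the miR-17-92 group and its paralogs, which are linked to cell proliferation, 11 of 13 assays were tested, 4 positive and 7 negative with a median of -0.07. miR-19a measured -1.31 (SE 0.61) and miR-106a measured -0.53 (SE 0.22). For these and miR-20b MCK-PPARa lay wholly below NTGa, as in 10.8% of all tested assays. For miR-25 at 0.86 and miR-106b at 0.38 it lay wholly above, as in 14.9%. The miR-29 family, which acts on collagen messenger RNAs, had 1 of 3 members positive and a median of -0.06. The 4 tested miR-23, miR-27 and miR-24 assays lay between 0.17 and 0.29. In the miR-15/16 family 3 of 6 were positive, with miR-195 at -0.67 and miR-322 at 0.997. All 3 tested miR-34 assays were positive with a median of 1.04, though miR-34c* on card B went from 0.42 to -0.68 without the card that stood apart. miR-135b read 25.999, 25.7 and 26.05 in NTGa and 29.2, 26.6 and 29.5 in MCK-PPARa. Its MCK-PPARa animals differed by almost 3 cycles among themselves, and the change of -2.35 (SE 1.01, adjusted p = 0.29) was 1.39 against NTGb.

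**Figure D5:**
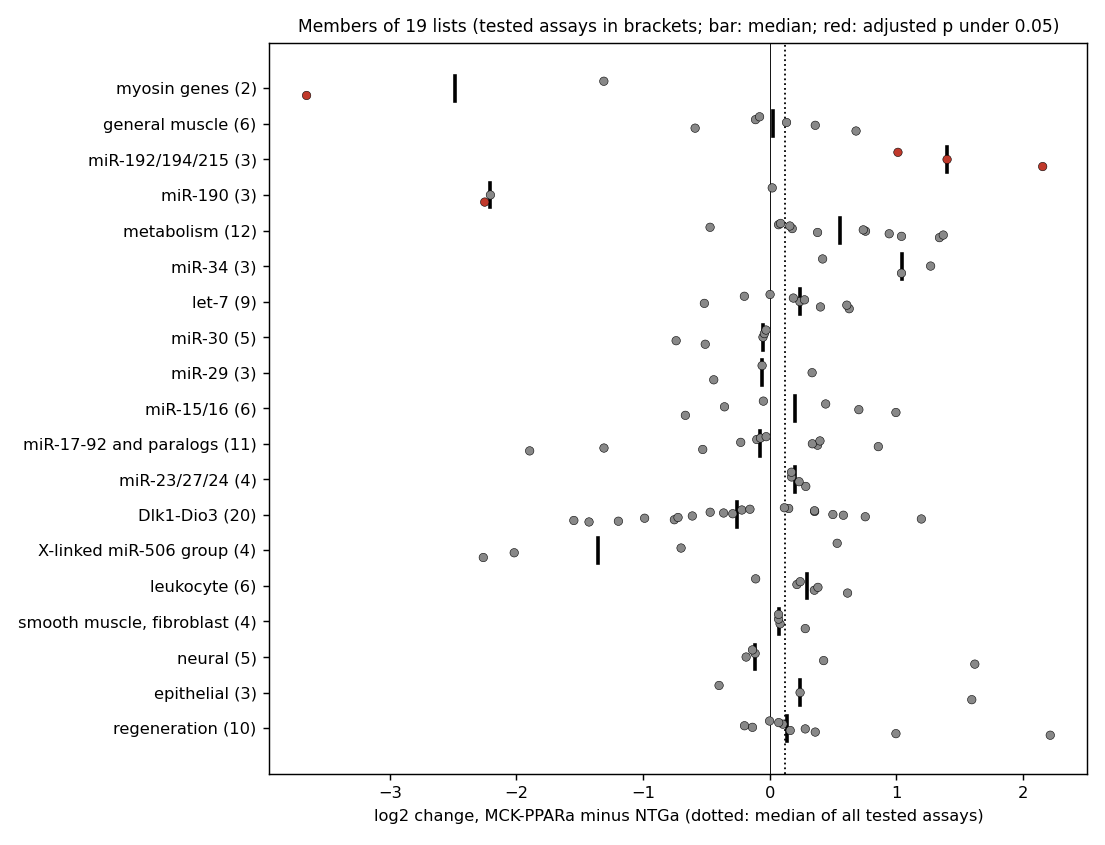
The log2 change of MCK-PPARa against NTGa (horizontal axis) is plotted for each tested assay (point) in 19 lists, with the number tested in brackets, the list's median as a bar, the median of all 268 assays (0.12) as a dotted line, and assays with an adjusted p under 0.05 in red. The miR-192 group lies at 1.01 or above, the myosin-gene members lie below -1, and most other lists straddle 0.

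The imprinted Dlk1-Dio3 region holds a large microRNA cluster that is active in muscle development. Of its 50 assays 20 were tested, 8 positive and 12 negative with a median of -0.26, and none passed. At an unadjusted p under 0.05 there were 4, all lower, where 8.96% of all tested assays were lower by that rule. miR-434-3p read 27.7, 27.4 and 26.7 in NTGa and 29.2, 29.5 and 28.1 in MCK-PPARa, a change of -1.43 (SE 0.38, adjusted p = 0.087). miR-337-3p measured -1.55, miR-136 measured -1.20 and miR-411 measured -0.75. The groups did not overlap for these 4, MCK-PPARa lying below NTGa as in 10.8% of all tested assays. Against NTGb they measured -0.33, -0.43, -0.41 and -0.86, so the size for the first 3 was smaller there. Of the 25 assays of the X-linked cluster around miR-506, known from testis, 4 were tested, with a median of -1.36, and rno-miR-463, the only positive one, measured 0.53 or -0.48 without the card B that stood apart. The lowest of the 4 was miR-509-3p, described above.

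Markers of the other cells of a muscle showed no change that passed. Of 7 leukocyte assays 6 were tested and 5 were positive, with a median of 0.30, and the summed level of the 7 had a median of 38.9 in NTGa and 42.5 in MCK-PPARa, with ranges that overlapped. miR-142-3p, which blood cells express, measured 0.62 (SE 0.35, adjusted p = 0.431). For smooth muscle and fibroblasts all 4 tested assays lay between 0.07 and 0.28, but 3 of the 4 were negative with U6, with the endogenous controls and with no reference. In endothelium miR-126-3p measured 0.27, with MCK-PPARa wholly above NTGa as in 14.9% of all tested assays. miR-126-5p, from the same hairpin, measured -0.85 (SE 0.49), with groups that overlapped. miR-451 of red cells measured 0.58 (SE 0.31). In the neural list 5 of 10 assays were tested, 2 positive and 3 negative with a median of -0.12, and without the card that stood apart 3 were positive with a median of 0.063. Among 8 assays for other organs only miR-7b was tested. These cover liver, pancreas and endocrine tissue, and also miR-124, which is in the neural list too. miR-7b measured -1 on the log2 scale (SE 0.35, adjusted p = 0.212), with a Ct of 33.8, 32.97 and 33.3 in NTGa and detection in 1 MCK-PPARa animal. The part of any of these in the results above was not tested.

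Assays of different strands of a hairpin often disagreed in sign. Of 50 pairs of strands in which both were tested, 26 had log2 changes of the same sign. Without the card B that stood apart the number was again 26, but 10 pairs had changed between like and unlike or to a value of 0. Of 8 pairs of a mouse and a rat assay of the same name, 3 had the same sign, those of miR-190b, miR-1 and miR-20b, and without that card miR-489 made 4. For miR-190b the pair read -2.25 and -2.21, the first -2.55 without that card. For miR-20b it read -1.90 and -0.18, the second -0.51 without it, and for miR-1 it read -0.11 and -0.59. The rat sequences were not used here.

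Detection was gained or lost in few assays. In MCK-PPARa, miR-215 and miR-687 were detected in all 3 animals but in no NTGa animal, and miR-208b was detected the other way round. miR-687 read 31.99, 34.7 and 31.3 in MCK-PPARa and 38.5, 35.9 and 39.4 in NTGa. The MCK-PPARa animals were thus earlier by at least 1 cycle each, though replicate 2 was at the floor after scaling, and the log2 change of 1.93 (SE 0.71, adjusted p = 0.217) did not pass. With every called Ct taken as detection, 6 assays were gained and 0 lost, miR-215 among them.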

How the data were processed

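Per the labels' protocols, soleus RNA was isolated by RNAzol B and TaqMan microRNA cards were cycled 40 times. The authors deposited 1 Ct per well, not normalized, for 2 cards of 384 wells per animal (a threshold cycle). Of the Ct software and threshold, nothing is given in the sources used here. All data columns were matched to animals by name, and 0 were left unmatched.

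Repeat wells were averaged within a card, and where only some were called the rest took a Ct of 40. Ct was scaled to the mean of the microRNAs that all 12 animals showed (149 on card A, 59 on card B), and a fold change assumes doubling at each cycle. limma 3.58.1 in R 4.3.3 (lmFit, eBayes) was fitted over all 12 animals in 4 groups, with 8 residual degrees of freedom, two-sided, and p-values adjusted (Benjamini-Hochberg) over 268 assays. The labels call replicates biological, and they were taken as separate animals. Single values were compared by exact permutation tests. Named microRNAs are those called, the 10 of lowest p in each direction, the muscle, myosin-gene, miR-190 and miR-192 lists, and up to 4 members of the other lists of 30. The members, the lists and these rules were chosen with earlier results of these data known. Alternatives were other references, detection limits, filters, fits, controls and each animal left out.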

Additional observations from a re-analysis of the deposited data

Results flagged for a closer look

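The effects of 3 microRNAs differed between the MCK-PPARa and MCK-PPARb lines by a test of the difference of effects (limma, adjusted over 268 assays). The difference, MCK-PPARa effect minus MCK-PPARb effect, was -3.58 on the log2 scale for miR-499 (adjusted p = 0.00141), 2.22 for miR-215 (adjusted p = 0.00612) and -2.22 for miR-190b (adjusted p = 0.0313). In each case the MCK-PPARa animals were the ones that stood apart, all 3 of them on the same side of the other 9 animals. The microRNAs were picked by tests on these same values, so this separation is no further support. miR-215 was also tested only through its detection in MCK-PPARa. Over the alternatives and the animals left out, the adjusted p of the difference reached 0.00888 for miR-499, 0.424 for miR-215 and 0.28 for miR-190b.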

How the results depend on the processing

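The calls of miR-499, miR-190b and miR-215 against NTGa held under each alternative that could give them a value and without each animal in turn. That of miR-194 was lost with U6 or no reference. That of miR-192 was lost under 7 of 18 processing alternatives (adjusted p up to 0.177) and that of miR-331-5p was lost under 8 of 16 and reached 0 under 1, and each was lost without 9 of the 12 animals. In all, 6 microRNAs were called, 3 with undetected values missing, and 4 to 12 with 1 animal left out (12 without MCK-PPARb replicate 1). Of the 6 called, the difference between the lines passed for 3, and for 4 with U6. With the median reference it passed for 1, as it did with no detection limit. It passed for 2 with endogenous controls, at Ct 32, with undetected values missing and with detection required in all 12 animals. With 1 animal left out it passed for 2 or 3. Detection was gained or lost in 3 assays, in 1 at a limit of Ct 32 and in 6 with any called Ct. Same-numbered NTGa and MCK-PPARa animals did not deviate together (correlations -0.288, 0.0562 and -0.114), so the numbers were not taken as pairs; with the replicate block 9 were called, 5 of the 6 among them. The following log2 values changed sign or reached 0, and the cause was not tested. With U6: miR-133b -0.05, miR-190 -0.17, miR-222 -0.03, rno-miR-20b-5p 0.02 and the difference between lines for miR-192 -0.09. With endogenous controls: miR-190 -0.06 and rno-miR-20b-5p 0.01. With the median reference: miR-1 0, miR-133a 0.03 and miR-339-3p 0.05. With no reference: miR-133b -0.05, miR-190 -0.16 and miR-222 -0.02. At Ct 32: miR-208b 0, miR-190 -0.24 and miR-425* 0.05. With no detection limit: miR-190 -0.09. Against NTGb: miR-331-5p 0, miR-425 -0.46, miR-509-3p 0.43, miR-741 0.33, miR-1 0.17, miR-133b 0, miR-206 -0.31, miR-33* -0.72, miR-210 -1.01, miR-30d 0, miR-148b -0.24, miR-191 -0.1, miR-222 -0.65, rno-miR-339-3p -0.91, rno-miR-20b-5p 0.66, miR-134 -1.31 and miR-135b 1.39. Against both control groups: miR-1 0.03, miR-210 -0.13, miR-222 -0.24, rno-miR-20b-5p 0.24 and miR-134 -0.05. Without card B of MCK-PPARa replicate 1: miR-425* 0.4. With 1 animal left out the range was -0.59 to 0.45 for miR-190, -0.3 to 0.14 for miR-339-3p, -0.83 to 0.38 for miR-425* and -0.53 to 0.03 for rno-miR-20b-5p. Values at Ct 32 and over are the least precise, and 51 of those 80 assays had an animal at the floor.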
